A study of Mus musculus with 241 samples.

Results

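Bcl11b- DN2a thymocytes were compared with Flt3- early T-lineage progenitors (ETPs) by bulk RNA sequencing, across all genes measured. The comparison rests on 5 of the series' 241 samples, chosen by the sort gate in the labels: 3 Bcl11b- DN2a libraries and 2 Flt3- ETP libraries. The Bcl11b- DN2a cells were sorted from thymus as Lin- 7AAD- cells positive for CD44, Kit and CD25 and negative for YFP. The Flt3- ETPs were sorted as Lin- 7AAD- cells positive for CD44 and Kit and negative for CD25 and Flt3. Both groups came from untreated C57BL/6 mice of genotype Bcl11b yfp/yfp, which carry a yellow fluorescent protein reporter at Bcl11b, so both groups are homozygous for the reporter allele. YFP is not named in the gate of the Flt3- ETPs. Replicate 1 of both groups and replicate 2 of Bcl11b- DN2a were made with NEBNext Ultra, and Bcl11b- DN2a replicate 3 and Flt3- ETP replicate 2 with SMARTseq. The sources give no age and do not say whether replicates came from separate mice, so the p-values below measure the spread between libraries, which may be technical. The other 7 bulk libraries, from Flt3+ ETPs, total ETPs and Bcl11b+ DN2a cells of the same genotype, entered the fit to estimate the spread. In addition, 2 droplet libraries of single cells from wild-type mice, sorted on the undivided CD44+ Kit+ gate, were used as a separate set of cells.

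ETPs are the earliest thymocytes of the mouse and still hold potential for myeloid, dendritic, natural killer and other fates. Notch signalling from the thymic stroma drives them to express CD25, the interleukin-2 receptor alpha chain encoded by Il2ra, and this marks entry into the DN2a stage. Loss of the growth factor receptor Flt3 from the surface precedes that step, and activation of Bcl11b, a zinc-finger factor needed for commitment to the T lineage, follows it. Flt3- ETPs and Bcl11b- DN2a cells therefore stand on either side of the entry into DN2a, before the Bcl11b activation that marks commitment.

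The gate genes were examined before the comparison. Il2ra had 253.5, 220.7 and 183.6 FPKM (fragments per kilobase of transcript, scaled to the depth of the library) in Bcl11b- DN2a replicates 1 to 3, against 18.4 and 4.74 FPKM in the Flt3- ETP libraries. Flt3 had 1.12, 2.73 and 0.735 FPKM in Bcl11b- DN2a, against 19.3 and 24.9 FPKM in Flt3- ETPs, although the Flt3- ETPs were gated as negative for the protein. Both genes separated the groups without overlap, which the sort made likely, and neither is a result. Kit and Cd44, the markers that the gates share, were at 31.8 to 121.3 and at 9.61 to 18.7 FPKM in Bcl11b- DN2a. In Flt3- ETPs they were at 28.04 to 51.3 and 20.9 to 21.5 FPKM. Neither gene passed in the limma fit with a kit term given below (adjusted p = 0.122 for Kit and 0.0857 for Cd44). Cd44 did pass in limma with runs of library numbers as block (log2 difference -0.71, adjusted p = 0.0142) and in edgeR (adjusted p = 0.0105). Bcl11b itself had 6.11, 3.08 and 0.596 FPKM in Bcl11b- DN2a and 4.54 and 0.028 FPKM in Flt3- ETPs.

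Depth was similar in both groups, at 26146474 to 33451807 reads on gene models in Bcl11b- DN2a and 28627648 and 35898876 in Flt3- ETPs. Replicate 1 of both groups stood apart in genes of other cells. The summed level of 11 stromal genes was 21.6, 0.945 and 2.18 FPKM in Bcl11b- DN2a replicates 1 to 3, and 41.98 and 0.652 FPKM in Flt3- ETP replicates 1 and 2. The T-cell receptor gene Cd3g followed the same order, with 19.8, 0.801 and 4.77 FPKM in Bcl11b- DN2a and 39.9 and 0.71 FPKM in Flt3- ETPs. Bcl11b- DN2a replicate 1 and Flt3- ETP replicate 1, which belong to the same run of library numbers, are the libraries with the higher values. The summed level of 15 genes of later T cells, Cd3g among them, was 234.5 FPKM in replicate 1 and 293.5 FPKM in replicate 3 of Bcl11b- DN2a. It was lower in replicate 2, which shares the kit of replicate 1. In Flt3- ETPs the sum was 178.5 and 179.2 FPKM. Lck, a kinase gene of the T-cell receptor, is part of the sum and was higher with SMARTseq in both groups. It had 162.8, 130.1 and 222.4 FPKM in Bcl11b- DN2a and 83.2 and 149.6 FPKM in Flt3- ETPs. The sum therefore cannot show whether replicate 1 held more RNA of later T cells. The Y-linked gene Eif2s3y was highest in replicate 1 of each group, at 0.42, 0 and 0.013 FPKM in Bcl11b- DN2a and 1.054 and 0 FPKM in Flt3- ETPs. The part of such RNA in the results was not tested.

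Of 12112 genes tested, 481 (3.97%) passed an adjusted p of 0.05 in a limma fit that held terms for population and for kit, 285 of them lower in Bcl11b- DN2a (2.35% of genes tested) and the others higher (1.62%). A fit with the 3 runs of library numbers as the block, in place of the kit, called 937 genes (7.74%), 453 (3.74%) higher and 484 (4%) lower, and all 481 genes were among them. The libraries of the groups did not overlap for 1498 genes (12.4%). The median difference over all genes tested was 0.12 on the log2 scale, so a gene group is read against that value. Counts of genes that rose or fell in a list are read against 1.62% and 2.35% of all genes tested. The lists were chosen with earlier results of these data known, so such counts are descriptions. The count depended on the Flt3- ETP libraries: without replicate 1, 1.35% of genes passed, 25 of them higher, and without replicate 2, 2550 genes passed, 1956 of them higher. It was 269, 325 and 274 without Bcl11b- DN2a replicates 1, 2 and 3. In 16 settings in all, with the fit given first among them, 98 genes passed each time, 23 of them higher and 75 lower; the setting without a kit term, in which 35 genes passed, is left out of these.

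**Figure D1:**
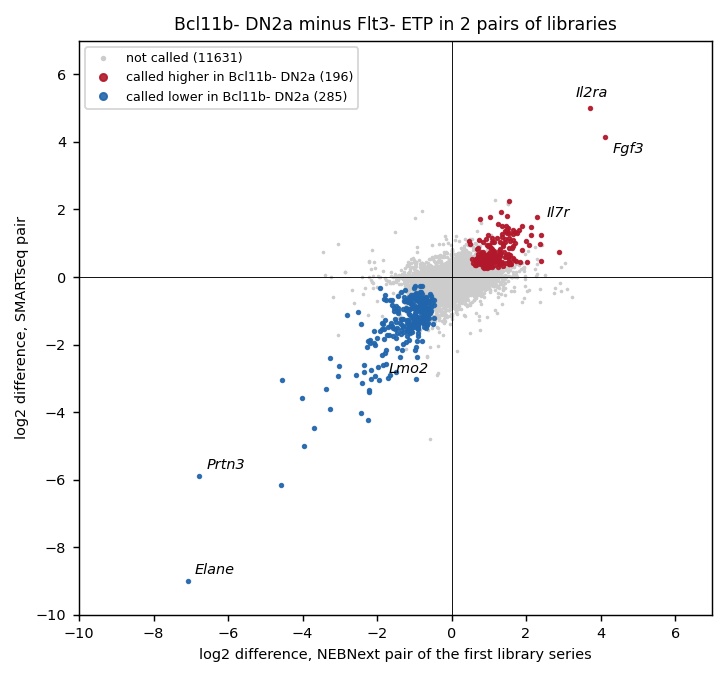
Each point is a gene tested, with its log2 difference of FPKM + 1 (Bcl11b- DN2a minus Flt3- ETP) in the NEBNext pair of the first library series on the horizontal axis and in the SMARTseq pair on the vertical axis. Genes called higher are red and the 285 called lower are blue; Elane lies farthest down in both pairs, and Il2ra and Fgf3 lie far above the other genes called higher in the SMARTseq pair.

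Among secreted factors, Fgf3, a fibroblast growth factor gene, was the largest rise apart from the gate gene. It had 75.2, 59.7 and 47.8 FPKM in Bcl11b- DN2a replicates 1 to 3, against 3.39 and 1.75 FPKM in Flt3- ETPs, a rise of 4.05 ± 0.25 (log2 difference of FPKM + 1 ± SE, 3 libraries against 2, adjusted p = 6.15e-06). Every Bcl11b- DN2a library was far above both Flt3- ETP libraries, in both kits. Of 16 ligand genes tested, 3 fell. Il12a, the p35 subunit of interleukin-12, had 1.12, 1.84 and 5.802 FPKM in Bcl11b- DN2a and 9.80 and 46.5 FPKM in Flt3- ETPs. The chemokine gene Ccl3 fell by 1.72 and the cytokine gene Il15 by 0.87. Il15 lost its call without Flt3- ETP replicate 1 (adjusted p = 0.205) and without Bcl11b- DN2a replicate 1 (adjusted p = 0.0762). In the 5 genes from Fgf3 to the cyclin gene Ccnd1 on chromosome 7, a window chosen after its values were seen, 3 were tested. Ccnd1 fell by 1.04 ± 0.19 (adjusted p = 0.0119), with 2.45, 3.27 and 1.28 FPKM in Bcl11b- DN2a and 5.71 and 4.675 FPKM in Flt3- ETPs, while Oraov1 between them differed by 0.19 ± 0.16 (adjusted p = 0.433).

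Of 31 cytokine receptor genes tested, 3 rose and 4 fell, against 1.62% and 2.35% of all genes tested, with a median difference of -0.25. Il7r encodes the interleukin-7 receptor alpha chain, which early thymocytes need to survive and divide. It had 20.3, 21.5 and 17.8 FPKM in Bcl11b- DN2a, against 3.32 and 4.44 FPKM in Flt3- ETPs, a rise of 2.11 ± 0.21 (adjusted p = 0.000324). The Bcl11b- DN2a libraries agreed closely and lay well above both Flt3- ETP libraries. Il12rb2, a chain of the interleukin-12 receptor, had 18.5, 19.04 and 25.5 FPKM in Bcl11b- DN2a and 2.76 and 12.4 FPKM in Flt3- ETPs, where the SMARTseq library was the higher. Il17rb, the receptor for interleukin-25, rose by 1.06 ± 0.16, with 35.1, 32.8 and 14.04 FPKM in Bcl11b- DN2a and 16.02 and 5.73 FPKM in Flt3- ETPs, so each kit showed the rise while the groups overlapped. The receptor genes that fell were Ifngr2, Csf1r, Csf3r and Il10rb. Ifngr2, a chain of the interferon gamma receptor, had 1.32, 1.71 and 1.38 FPKM in Bcl11b- DN2a and 7.34 and 13.6 FPKM in Flt3- ETPs (fell by 2.09 ± 0.25, adjusted p = 0.000896). The receptors of the myeloid growth factors M-CSF and G-CSF, encoded by Csf1r and Csf3r, fell by 1.84 ± 0.27 and 1.36 ± 0.17. Csf1r lost its call without Flt3- ETP replicate 1 (adjusted p = 0.0922). Il2rg, the chain that the interleukin-7 receptor shares with the interleukin-2 receptor, differed by -0.06 ± 0.13.

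The promoter windows of 4 genes are shown because the comparison turns on them: Il7r and Fgf3, which rose, and the neighbouring protease genes Prtn3 and Elane, which fell. Each is the 250 bases before the RefSeq transcript start on GRCm38.p6, read 5′ to 3′ on the gene's strand, and each start coincided with that of the deposited gene model. The windows are chr15:9529877-9530126 (minus strand) for Il7r, chr7:144838362-144838611 (plus) for Fgf3, chr10:79879417-79879666 (plus) for Prtn3 and chr10:79886062-79886311 (plus) for Elane. Capitals mark the 6 letters GAGGAA, part of the motif of the myeloid and progenitor factor PU.1, and TTCNNNGAA, the motif of STAT5, on either strand; no matches overlapped.
Il7r: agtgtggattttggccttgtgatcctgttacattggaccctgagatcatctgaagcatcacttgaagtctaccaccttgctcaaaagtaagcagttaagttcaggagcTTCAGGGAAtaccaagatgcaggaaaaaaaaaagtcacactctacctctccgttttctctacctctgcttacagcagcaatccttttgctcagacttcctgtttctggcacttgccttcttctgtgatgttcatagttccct
Fgf3: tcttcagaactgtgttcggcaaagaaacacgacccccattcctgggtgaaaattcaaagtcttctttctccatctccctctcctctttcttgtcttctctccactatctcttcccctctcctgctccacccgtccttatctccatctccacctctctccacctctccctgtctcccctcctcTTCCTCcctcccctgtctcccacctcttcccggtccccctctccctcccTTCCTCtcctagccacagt
Prtn3: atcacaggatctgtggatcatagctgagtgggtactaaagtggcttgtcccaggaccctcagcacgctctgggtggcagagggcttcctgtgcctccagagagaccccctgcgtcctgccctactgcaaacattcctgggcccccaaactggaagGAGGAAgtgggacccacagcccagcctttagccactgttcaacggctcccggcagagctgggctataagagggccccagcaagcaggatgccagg
Elane: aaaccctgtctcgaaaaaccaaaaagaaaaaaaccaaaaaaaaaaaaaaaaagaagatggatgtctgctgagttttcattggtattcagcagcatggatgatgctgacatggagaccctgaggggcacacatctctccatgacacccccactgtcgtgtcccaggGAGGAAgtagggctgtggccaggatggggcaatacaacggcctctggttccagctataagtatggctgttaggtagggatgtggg
GAGGAA occurred 2 times in the window of Fgf3 and 1 time in those of Prtn3 and Elane, and it is present in 23.3% of all 32851 windows of this length. TTCNNNGAA occurred 1 time in the window of Il7r and is present in 7.02% of the windows. TGTGGT, the core of the RUNX motif, was not in these 4 windows and is present in 14% of the 32851. A match is a description of the letters and not evidence of binding.

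Genes that act downstream of cytokine receptors, or restrain their signals, moved in part. Of 16 tested, 4 rose and 1 fell, with a median difference of 0.33. Pim1, a kinase gene induced by STAT5, had 134.7 and 102.7 FPKM in the NEBNext libraries of Bcl11b- DN2a and 50.7 FPKM in that of Flt3- ETPs, and 31.2 against 16.1 FPKM with SMARTseq (rise of 1.04 ± 0.20, adjusted p = 0.0133). Stat5a and Stat5b, the transcription factors that carry the interleukin-7 signal, rose by 0.81 ± 0.15 and 0.78 ± 0.17, and the survival gene Bcl2 by 0.69 ± 0.16. Dusp6, a phosphatase gene that limits ERK signalling, fell by 1.18 ± 0.24. The list's count of 5 was 0, 3 and 2 without Bcl11b- DN2a replicates 1, 2 and 3, and 1, Dusp6, without Flt3- ETP replicate 1.

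Among adhesion and surface genes, 3 of 28 tested rose and 4 fell. Itga4, the alpha 4 integrin, had 88.1, 123.7 and 21.2 FPKM in Bcl11b- DN2a and 19.99 and 10.4 FPKM in Flt3- ETPs. In total ETPs, of the same run of library numbers as Bcl11b- DN2a replicate 2, it had 62.6 and 85.04 FPKM. Those values exceed the 19.99 and 24.2 FPKM of Flt3- and Flt3+ ETPs with NEBNext, and the cause was not tested. With the runs of library numbers as block, Itga4 rose by 1.49 (adjusted p = 0.0016). Itga2b, the platelet integrin alpha IIb, had 24.02, 18.6 and 4.20 FPKM in Bcl11b- DN2a and 4.66 and 1.18 FPKM in Flt3- ETPs, so its libraries overlapped between kits but not within them. Both lost their call without Flt3- ETP replicate 1 (adjusted p = 0.328 for Itga4 and 0.087 for Itga2b). Dpp4, the peptidase CD26, had 62.1, 74.6 and 59.2 FPKM in Bcl11b- DN2a and 18.5 and 22.7 FPKM in Flt3- ETPs, and rose by 1.62 ± 0.20 (adjusted p = 0.00109). Mdga1, an immunoglobulin-family membrane protein gene, had 9.30, 10.2 and 2.55 FPKM in Bcl11b- DN2a and 0.958 and 0.508 FPKM in Flt3- ETPs (rise of 1.93 ± 0.28), and without Flt3- ETP replicate 1 its adjusted p was 0.087. The falls included Cd34, a sialomucin of blood progenitors, with 56.2, 79.7 and 74.7 FPKM in Bcl11b- DN2a and 138.3 and 231.2 FPKM in Flt3- ETPs. Egfl7, encoding a secreted protein that binds the matrix, had 24.8, 20.9 and 26.9 FPKM in Bcl11b- DN2a and 107.1 and 83.2 FPKM in Flt3- ETPs. Itgb2, the beta chain of the leukocyte integrins, fell by 1.01 ± 0.15 and Adgrl4 by 1.46 ± 0.32.

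The remaining large rises were in genes of several functions. Scin, an actin-severing protein, had 106.7, 118.1 and 160.985 FPKM in Bcl11b- DN2a and 28.1 and 55.3 FPKM in Flt3- ETPs. Fut8, the core fucosyltransferase, had 94.7, 108.5 and 127.7 FPKM in Bcl11b- DN2a and 27.6 and 50.7 FPKM in Flt3- ETPs. Muc13, a membrane mucin, was even across Bcl11b- DN2a at 70.9, 70.8 and 72.5 FPKM, against 17.05 and 34.2 FPKM in Flt3- ETPs. None of these libraries overlapped between groups, which was so for 12.4% of all genes tested, and these genes were picked for their large rises. Emilin2, an extracellular matrix gene, rose by 1.56 ± 0.16 (adjusted p = 0.000324), with 41.6, 34.3 and 19.1 FPKM in Bcl11b- DN2a and 11.1 and 6.63 FPKM in Flt3- ETPs. Cdkn1a, which encodes the cell-cycle inhibitor p21, rose by 1.61 ± 0.36 (adjusted p = 0.0303). It had 15.2, 8.52 and 12.8 FPKM in Bcl11b- DN2a and 4.59 and 1.89 FPKM in Flt3- ETPs, and leaving out any of 4 libraries ended its call, all but Bcl11b- DN2a replicate 2 (adjusted p = 0.0762 to 0.131). Plscr1, a phospholipid scramblase gene, rose by 1.52 ± 0.31 and lost its call without Flt3- ETP replicate 1 (adjusted p = 0.432) and without Bcl11b- DN2a replicate 3 (adjusted p = 0.0736). The small nucleolar RNA Snord69 was also among the 15 largest rises, but it lies within another gene whose reads cannot be told apart from its own.

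**Figure D2:**
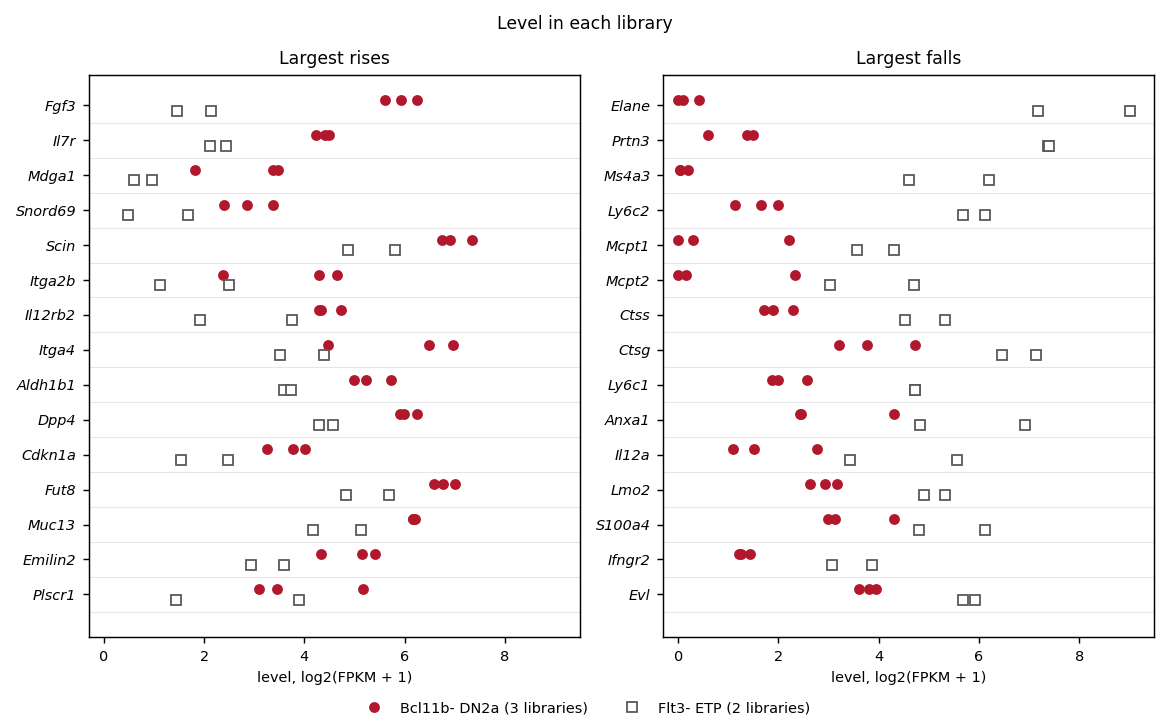
Level of the 15 largest rises and 15 largest falls, as log2(FPKM + 1), in each of 3 Bcl11b- DN2a libraries (filled circles) and 2 Flt3- ETP libraries (open squares). The libraries of the groups overlap for Itga2b and Plscr1; the genes were chosen for their large differences, so the separation of the others (12.4% of all genes tested separate) is a description.

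Of 27 T-lineage transcription factor genes tested, 4 rose, 1 fell and 22 did not pass, with a median difference of 0.34. Tcf7 encodes TCF-1, a factor induced by Notch that opens the T-lineage programme. It had 303.5 and 309.4 FPKM in the NEBNext libraries of Bcl11b- DN2a and 128.7 FPKM in that of Flt3- ETPs, and 142.5 against 62.9 FPKM with SMARTseq (rise of 1.21 ± 0.11, adjusted p = 0.000186). All 3 Bcl11b- DN2a libraries exceeded both Flt3- ETP libraries. Gata3, needed for T-cell specification, had 14.7, 11.7 and 11.5 FPKM in Bcl11b- DN2a and 4.51 and 7.26 FPKM in Flt3- ETPs (0.98 ± 0.22, adjusted p = 0.0273). Runx1 rose by 0.85 ± 0.21 and the E protein gene Tcf12 by 0.83 ± 0.18. Id2, an inhibitor of E proteins, fell by 0.81 ± 0.15. Without Flt3- ETP replicate 1, Gata3 (0.49, adjusted p = 0.454), Runx1 (0.34, adjusted p = 0.657) and Tcf12 (0.61, adjusted p = 0.434) lost their call, and Tcf7 kept it. The list's count of 5 was 2, 3 and 2 without Bcl11b- DN2a replicates 1, 2 and 3, 2 without Flt3- ETP replicate 1 and 13 without Flt3- ETP replicate 2. Gata3 was lost without Bcl11b- DN2a replicates 1 and 3, Runx1 without any one of the Bcl11b- DN2a libraries, Tcf12 without replicates 1 and 2, and Id2 without replicate 3.

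In the Notch list, 2 of 16 genes tested rose, and these were Tcf7 and Gata3. The classical target Hes1 had 39.3, 43.1 and 62.6 FPKM in Bcl11b- DN2a and 46.2 and 59.7 FPKM in Flt3- ETPs, a difference of -0.09 ± 0.14 (adjusted p = 0.679). The targets Nrarp and Dtx1 differed by 0.27 ± 0.15 and 0.24 ± 0.32, and neither passed. Notch1, the receptor, differed by 0.63 ± 0.19 and did not pass (adjusted p = 0.0858). It had 81.2 and 77.3 FPKM against 37.9 FPKM with NEBNext, and 8.86 against 7.88 FPKM with SMARTseq, and it passed with NEBNext libraries alone (1.04, adjusted p = 0.0292) and without Flt3- ETP replicate 2 (1.03, adjusted p = 0.00395). The list's count of 2 was 1 without Bcl11b- DN2a replicate 1 or 3 or Flt3- ETP replicate 1, and 5 without Flt3- ETP replicate 2.

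Of 22 transcription factor genes of uncommitted progenitors, 5 fell and 1 rose. Lmo2, an adaptor of blood stem and progenitor cells, had 6.61, 7.97 and 5.21 FPKM in Bcl11b- DN2a and 28.8 and 38.8 FPKM in Flt3- ETPs. Cebpa, a factor that directs granulocyte and monocyte fates, had 0.257, 0.159 and 0 FPKM in Bcl11b- DN2a and 5.76 and 1.601 FPKM in Flt3- ETPs. Gata2 fell by 1.48 ± 0.21, Hoxa9 by 1.28 ± 0.18 and Meis1 by 1.09 ± 0.23. Each of these 5 genes was lower in every Bcl11b- DN2a library than in either Flt3- ETP library. The libraries separated for 12.4% of all genes tested, and these 5 were called genes, so this is a description. Cebpa (adjusted p = 0.0853) and Gata2 (adjusted p = 0.0609) lost their call without Flt3- ETP replicate 1, which left 3 of the list's 6 calls. In the Hoxa cluster on chromosome 6, Hoxa9 was the sole gene to pass of 7 tested. Zbtb16, the factor PLZF of innate-like lymphocytes, rose by 0.93 ± 0.20, with 2.67, 2.44 and 0.784 FPKM in Bcl11b- DN2a and 0.64 and 0.154 FPKM in Flt3- ETPs. Other factors of the uncommitted state did not pass. Spi1, which encodes PU.1, had 62.4, 50.8 and 51.97 FPKM in Bcl11b- DN2a and 76.995 and 68.7 FPKM in Flt3- ETPs (-0.41 ± 0.23, adjusted p = 0.267). Bcl11a and Mef2c differed by -0.05 ± 0.15 and -0.48 ± 0.25, and the sign of both turned with NEBNext libraries alone (0.11 for Bcl11a and 0.0029 for Mef2c).

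T-cell receptor and recombination genes were divided, with 2 of 28 rising and 3 falling. Lck, the proximal kinase of the receptor, had 162.8 and 130.1 against 83.2 FPKM with NEBNext and 222.4 against 149.6 FPKM with SMARTseq (rise of 0.69 ± 0.14), and the adaptor gene Lcp2 rose by 0.61 ± 0.13. Dntt, the terminal transferase that adds bases at receptor gene junctions, had 125.9, 174.2 and 109.3 FPKM in Bcl11b- DN2a and 347.1 and 350.8 FPKM in Flt3- ETPs, a fall of 1.42 ± 0.20 (adjusted p = 0.0023). The Flt3- ETP libraries were nearly equal, and both lay far above the highest Bcl11b- DN2a library. Cd7 fell by 1.09 ± 0.20 and Cd27 by 0.61 ± 0.13. Lck (adjusted p = 0.28), Cd7 (adjusted p = 0.136) and Cd27 (adjusted p = 0.087) lost their call without Flt3- ETP replicate 1. The list's count of 5 was 3, 3 and 2 without Bcl11b- DN2a replicates 1, 2 and 3, and 1 without Flt3- ETP replicate 1. Dntt was not called after quantile normalization (adjusted p = 0.0742). Cd3g, whose values are given above, did not pass.

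Granule protein genes gave the largest falls. Of 15 genes listed, 11 were tested, 10 fell and 0 rose, against 2.35% of all genes tested, and the median difference was -2.75. Elane, neutrophil elastase, had 0.074, 0.337 and 0 FPKM in Bcl11b- DN2a and 144.2 and 516.6 FPKM in Flt3- ETPs (fell by 7.81 ± 0.36, adjusted p = 1.46e-06). Its neighbour Prtn3, proteinase 3, had 0.515, 1.599 and 1.81 FPKM in Bcl11b- DN2a and 165.1 and 167.3 FPKM in Flt3- ETPs. Ms4a3 had 0.023, 0.14 and 0.023 FPKM in Bcl11b- DN2a and 23.5 and 72.6 FPKM in Flt3- ETPs. The fall was smaller where Bcl11b- DN2a cells kept a level. Mpo, myeloperoxidase, had 127.2, 138.1 and 153.985 FPKM in Bcl11b- DN2a and 435.5 and 698.5 FPKM in Flt3- ETPs, a fall of 1.87 ± 0.23. Ctsg, cathepsin G, had 8.28, 12.5 and 25.3 FPKM in Bcl11b- DN2a and 87.5 and 138.9 FPKM in Flt3- ETPs. The calcium-binding protein gene S100a8 had 0.349, 0 and 0 FPKM in Bcl11b- DN2a and 20.2 and 30.9 FPKM in Flt3- ETPs. The summed level of the 15 genes was 180.2 to 266.1 FPKM in Bcl11b- DN2a and 978.5 and 1863 FPKM in Flt3- ETPs. Leaving out any of the 5 libraries left 9 or 10 of the 11 genes called. The genes of secondary granules, Ltf, Camp, Ngp and Lcn2, did not reach the level needed for a test. In bulk samples, fewer cells of a type and less RNA per cell cannot be told apart.

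Several of these genes lie in clusters, and windows around them, chosen after their values were seen, held genes that moved and genes that did not. Prtn3 ends 3139 bases before Elane starts on chromosome 10. On chromosome 14 the window from the mast cell protease gene Mcpt1 to Gzmb held 14 genes, of which 6 were tested and 4 fell, namely Mcpt1, Mcpt2, Mcpt4 and Ctsg, while Mcpt8 and Gzmb did not pass (adjusted p = 0.127 and 0.829). Mcpt1 and Mcpt2 are related genes, and whether their reads were shared was not tested. Both were highest, at 3.65 and 4.04 FPKM, in replicate 2 among the Bcl11b- DN2a libraries. Without Flt3- ETP replicate 1 neither passed (adjusted p = 0.063 for Mcpt1 and 0.185 for Mcpt2). In the Ly6 window on chromosome 15, of 8 genes tested Ly6a, Ly6c1 and Ly6c2 fell and Ly6d rose. Ly6c2 had 2.98, 1.199 and 2.16 FPKM in Bcl11b- DN2a and 50.3 and 68.8 FPKM in Flt3- ETPs. Ly6d had 106.7, 62.1 and 182.7 FPKM in Bcl11b- DN2a and 41.9 and 47.1 FPKM in Flt3- ETPs. Ly6c1 and Ly6c2 are close copies, so the split of reads between them is uncertain. In the S100 window on chromosome 3, 4 of 6 genes tested fell and 0 rose.

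Genes of other myeloid cells fell less evenly. Of 15 monocyte and dendritic cell genes tested, 5 fell and 1, Ly6d, known from lymphoid progenitors, rose. The summed level of the 22 genes listed was 250.7 to 469.8 FPKM in Bcl11b- DN2a and 442.1 and 458.9 FPKM in Flt3- ETPs, so the sums overlapped. Ly6d alone had 106.7, 62.1 and 182.7 FPKM of this in Bcl11b- DN2a, and 41.9 and 47.1 FPKM in Flt3- ETPs. The sum therefore mixes its rise with the falls of other genes, and the overlap does not describe those. Without Bcl11b- DN2a replicate 3 the count of 6 was 3, and without Flt3- ETP replicate 1 it was 2. Ctss, cathepsin S, had 3.89, 2.28 and 2.73 FPKM in Bcl11b- DN2a and 21.9 and 38.8 FPKM in Flt3- ETPs, a fall of 2.88 ± 0.31. The defining genes Adgre1, Cd14, Clec9a and Siglech did not reach the level needed for a test. Of 14 activating and inhibitory myeloid receptor genes tested, 6 fell and 1 rose, and the count of 7 was 4 without Bcl11b- DN2a replicate 3 and 5 without Flt3- ETP replicate 1. The rise was in Fcer1g, an ITAM adaptor, with 28.96 and 27.4 against 13.9 FPKM with NEBNext and 93.7 against 48.3 FPKM with SMARTseq. It lost its call without Flt3- ETP replicate 1 (adjusted p = 0.137) and without Bcl11b- DN2a replicate 3 (adjusted p = 0.0509). Among mast cell, erythroid and megakaryocyte genes 4 of 12 fell, namely Cma1, Car2, Hdc and Ms4a2, and 1 rose. That gene, Cpa3, the mast cell carboxypeptidase, had 98.7 and 126.8 against 54.7 FPKM with NEBNext and 481.7 against 234.9 FPKM with SMARTseq (rise of 1.01 ± 0.19, adjusted p = 0.0131). The summed level of that list was 473.2 to 1217 FPKM in Bcl11b- DN2a and 382 and 730.9 FPKM in Flt3- ETPs. It was higher in Bcl11b- DN2a within each kit although most of the list's calls were falls. Cpa3 was a part of this sum. The globin genes Hbb-bt and Hbb-bs also had positive differences, 1.49 and 1.51, and Hba-a1 and Hba-a2 negative ones, -2.07 and -2.06, and none of these passed. With the runs of library numbers as block, 3 genes of the list rose and 7 fell. Of 25 cathepsin, annexin, S100 and galectin genes, 7 fell and 0 rose, and the count was 4 without Flt3- ETP replicate 1. Anxa3 had 0.384, 0.195 and 0.186 FPKM in Bcl11b- DN2a and 6.49 and 18.5 FPKM in Flt3- ETPs. Among 10 natural killer and innate lymphoid genes, Fcer1g and Zbtb16 rose and 3 fell, namely Id2, Klrd1 and Nkg7. Klrd1, the receptor chain CD94, fell by 2.51 ± 0.30, and Nkg7 by 0.77 ± 0.13. The count of 5 was 3 without Bcl11b- DN2a replicate 3 and 3 without Flt3- ETP replicate 1. The summed level of the 18 genes listed was 128.1 to 570.4 FPKM in Bcl11b- DN2a and 193.9 and 837.6 FPKM in Flt3- ETPs. Of 4 B-lineage genes and 3 stromal genes tested, 0 passed.

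**Figure D3:**
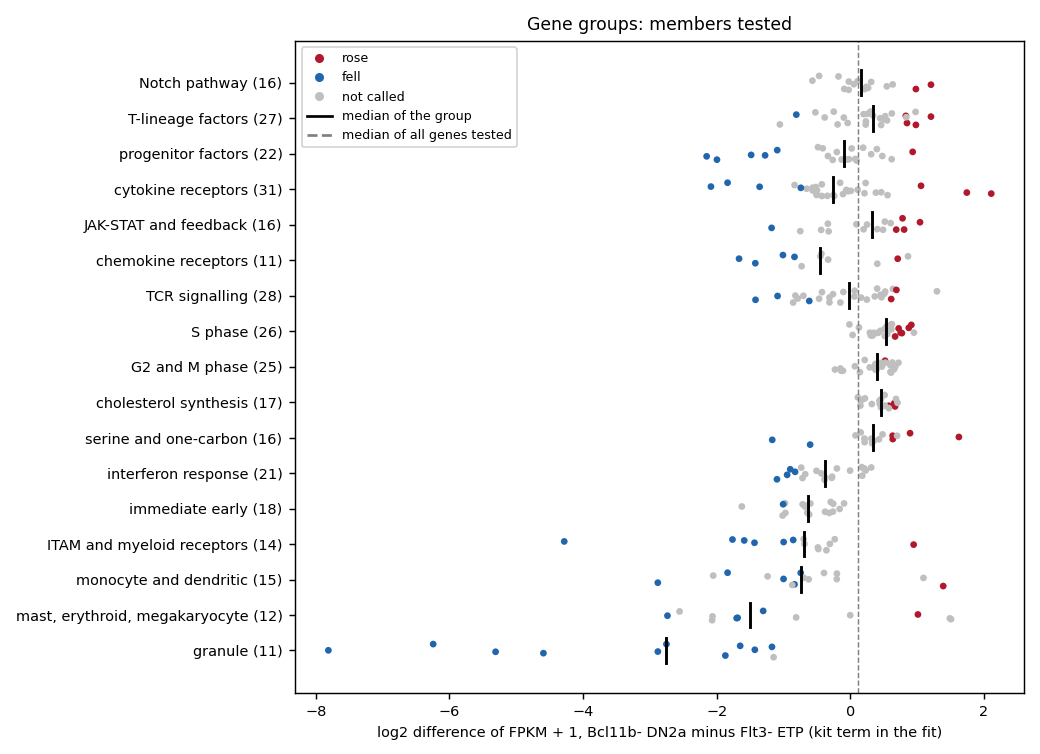
Log2 difference of FPKM + 1 (Bcl11b- DN2a minus Flt3- ETP) of each tested member of 17 gene groups, with the number tested in brackets, called members in red or blue, a black bar at the group's median and a dashed line at 0.12, the median of all genes tested. The granule group lies wholly below zero, with 10 of 11 genes called, while the medians of the S phase and cholesterol groups lie above the dashed line, with few members called.

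Of 11 chemokine and homing receptor genes tested, Ccr9, Cxcr3, Ccr7 and Ccr2 fell and Cxcr4 rose. Ccr9, a receptor for the thymic chemokine CCL25, had 0.349, 0.175 and 0.063 FPKM in Bcl11b- DN2a and 2.81 and 2.70 FPKM in Flt3- ETPs, a fall of 1.67 ± 0.23 (adjusted p = 0.00197). All of these receptors that fell were at low levels, at most 4.15 FPKM in any of the 5 libraries. Cxcr4, the receptor for CXCL12, had 102.6 and 93.1 against 53.6 FPKM with NEBNext and 30.3 against 20.2 FPKM with SMARTseq (rise of 0.71 ± 0.13). Without Flt3- ETP replicate 1, Cxcr4 (adjusted p = 0.19), Cxcr3 (adjusted p = 0.137), Ccr7 (adjusted p = 0.157) and Ccr2 (adjusted p = 0.115) lost their call, and Ccr9 kept it. The list's count of 5 was 1 in that setting, and 3 and 1 with Bcl11b- DN2a replicates 2 and 3 left out in turn.

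DNA replication genes had mostly positive differences, and few of them passed the test. Of 26 tested, 25 had a positive difference, 6 rose and 0 fell, and the median was 0.53 against 0.12 for all genes. With the runs of library numbers as block, 13 rose. The 6 were Uhrf1, Pole, Mcm7, Cdc6, Mcm10 and Rrm2, with rises of 0.67 to 0.91. Mcm10, a replication initiation factor, had 18.8 and 16.6 against 7.55 FPKM with NEBNext and 8.78 against 5.72 FPKM with SMARTseq. Within the NEBNext pair 23 of the 26 genes were higher in Bcl11b- DN2a, with a median of 0.664 against 0.222 for all genes tested. Within the SMARTseq pair 26 were higher, with a median of 0.311 against -0.0164. The count of single calls depended on which library was left out: 0 were made without Bcl11b- DN2a replicate 1 or without Flt3- ETP replicate 1, 2 and 3 without Bcl11b- DN2a replicates 2 and 3, and 14 without Flt3- ETP replicate 2. Mitosis genes had a median of 0.40, with Kif20a alone called of 25, and of 22 ribosome biogenesis genes 0 passed in limma and 1 in edgeR. Without Flt3- ETP replicate 2 these counts were 9 and 6, and without any other one of the 5 libraries both were 0.

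All 17 cholesterol synthesis genes had a positive difference, with a median of 0.46, and 3 rose, among them Sqle, the squalene epoxidase, by 0.58 ± 0.13. Of 16 serine, one-carbon and amino acid genes, 4 rose and 2 fell. Aldh1b1, a mitochondrial aldehyde dehydrogenase, rose by 1.62 ± 0.25, with 52.4, 30.6 and 36.3 FPKM in Bcl11b- DN2a and 11.1 and 12.2 FPKM in Flt3- ETPs. The transporter gene Slc38a2 and the enzyme genes Psat1 and Mthfd2 rose by 0.89, 0.64 and 0.63. Without Flt3- ETP replicate 1 none of these 7 rises passed, Aldh1b1 having an adjusted p of 0.108. Cholesterol genes called were 0, 0 and 1 without Bcl11b- DN2a replicates 1, 2 and 3, and 7 without Flt3- ETP replicate 2, and serine, one-carbon and amino acid genes called were 3, 3 and 2 of 6 without Bcl11b- DN2a replicates 1, 2 and 3. The asparagine synthetase gene Asns fell, with 1.64, 0.615 and 1.47 FPKM in Bcl11b- DN2a and 3.55 and 4.62 FPKM in Flt3- ETPs. Among 19 glycolysis genes Pfkfb3 rose, and Slc2a3 and Eno1 fell, and 0 of these calls were made without Bcl11b- DN2a replicate 2, without replicate 3 or without Flt3- ETP replicate 1.

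Of 21 interferon-stimulated genes, 4 fell and 0 rose, with a median difference of -0.38. Irf7, a factor that amplifies the interferon response, had 6.91, 8.15 and 6.61 FPKM in Bcl11b- DN2a and 12.7 and 14.4 FPKM in Flt3- ETPs, a fall of 0.83 ± 0.15. Ifi44 fell by 1.098 and Oasl2 by 0.90. The count was 2, 2 and 0 without Bcl11b- DN2a replicates 1, 2 and 3, 1 without Flt3- ETP replicate 1 and 6 without Flt3- ETP replicate 2. Immediate early and stress genes all had negative differences, 18 of 18, with a median of -0.63, but 1 passed, the mRNA decay factor gene Zfp36 (fell by 1.01 ± 0.19). The median was -0.34 with the runs of library numbers as block, and within the SMARTseq pair it was -0.141, with 4 of the 18 genes higher in Bcl11b- DN2a. Fos and Egr1 were highest in replicate 1 of each group, the libraries with more stromal RNA, and the part of this in the list was not tested. Fos had 1.90, 0 and 0.011 FPKM in Bcl11b- DN2a and 4.06 and 0.131 FPKM in Flt3- ETPs, and Egr1 had 2.50, 0.1 and 0.052 FPKM in Bcl11b- DN2a and 5.48 and 0.062 FPKM in Flt3- ETPs.

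The levels in the other sorted populations place these genes, as a description. Fgf3 was at 0.104 to 3.39 FPKM in all 6 ETP libraries and at 37.5 to 75.2 FPKM in all 6 DN2a libraries. Il7r was lowest in Flt3- ETPs, at 3.32 and 4.44 FPKM, below the 7.43 to 9.28 FPKM of the total and Flt3+ ETP libraries, and reached 35.2 to 59.2 FPKM in Bcl11b+ DN2a. Elane was highest in Flt3- ETPs, at 144.2 and 516.6 FPKM, against 38.8 and 45.3 FPKM in total ETPs and 1.52 and 4.50 FPKM in Flt3+ ETPs. Lmo2 was at 28.8 to 69.4 FPKM in the ETP libraries, at 5.21 to 7.97 FPKM in Bcl11b- DN2a and at 1.00 to 1.52 FPKM in Bcl11b+ DN2a. Dntt was lowest in Bcl11b- DN2a, at 109.3 to 174.2 FPKM, against 209.1 to 347.4 FPKM in Bcl11b+ DN2a. Tcf7 was alike in both DN2a populations within each kit, at 303.5 to 311.1 FPKM with NEBNext.

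**Figure D4:**
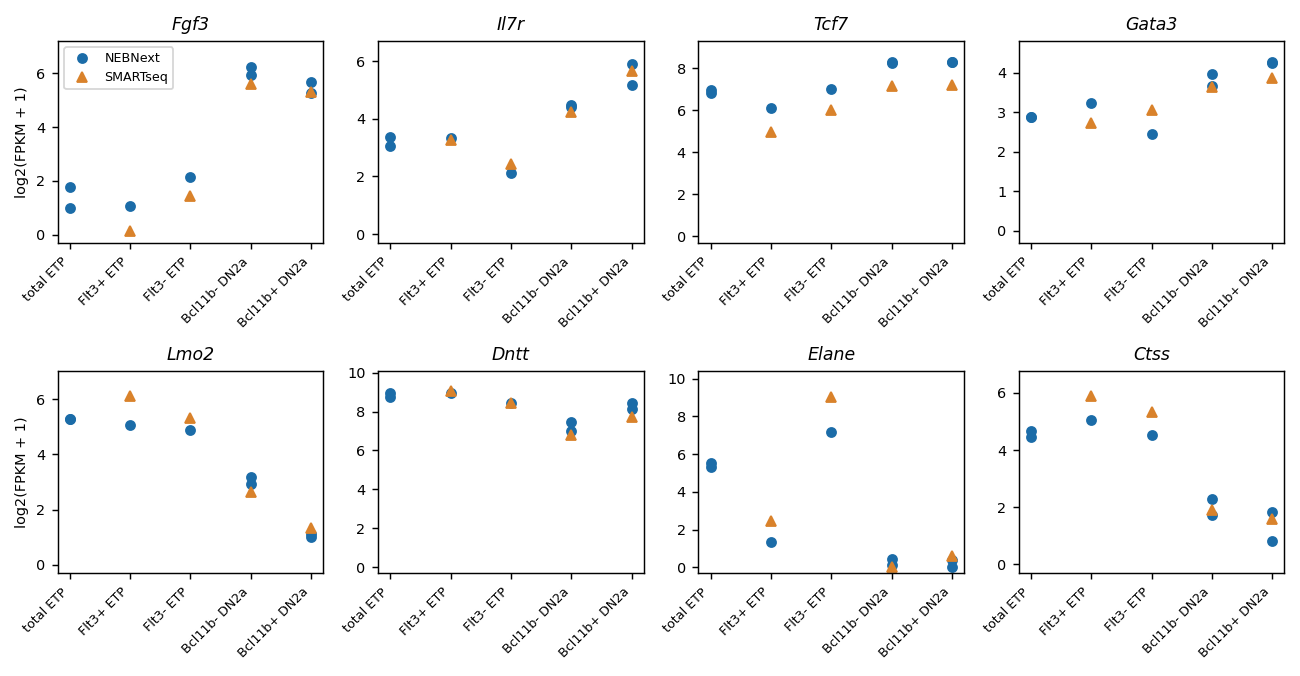
Level of 8 genes, as log2(FPKM + 1), in each bulk library of 5 sorted populations, with NEBNext libraries as blue circles and SMARTseq libraries as orange triangles. Fgf3 separates the DN2a from the ETP populations, Il7r is lowest in Flt3- ETPs, Dntt is lowest in Bcl11b- DN2a, and Elane is highest in Flt3- ETPs.

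The direction of the bulk differences was examined in the droplet libraries, which hold cells of other mice. Cells with at least 1 Il2ra UMI (unique molecular identifier) and no Bcl11b UMI were set against cells with no UMI of Il2ra, Flt3 or Bcl11b, giving 1450 and 1635 cells in library 1 and 2088 and 3295 cells in library 2. The median depth was 8514 and 7800 UMIs per cell in library 1 and 6568 and 5527 in library 2. The 2 libraries shared 57 barcodes. No test was made, since absence of a UMI does not define a sorted population and cells are not replicates. Of 86 named and called genes with at least 20 UMIs in each library, 85 had the bulk direction in both libraries, all 37 that rose and 48 of 49 that fell. Over all 10359 genes with enough UMIs this share was 53.9%, and among the 9948 that bulk did not call it was 52.1%.

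Fgf3 had 892 UMIs in Il2ra+ cells of library 1 and 1148 in those of library 2, and log2 ratios over the cells with no gate UMI, after scaling to each class's total UMIs, of 2.67 (95% exact interval 2.41 to 2.93, counting error alone) and 2.02 (1.85 to 2.19). Il7r had ratios of 1.46 (1.22 to 1.71) and 1.29 (1.11 to 1.48), and Tcf7 of 0.81 and 0.78. Cdkn1a, whose bulk call was the weakest of the 15 largest rises, had 326 and 466 UMIs in Il2ra+ cells, with ratios of 2.31 (1.93 to 2.71) and 2.00 (1.74 to 2.27). Lmo2 had ratios of -1.62 and -1.56, Dntt of -0.93 and -0.92 and Ctss of -2.08 and -1.95. The exception among the named and called genes with enough UMIs was Ly6c1, which was higher in Il2ra+ cells. It had 31 and 17 UMIs in library 1 and 44 and 41 in library 2. Its ratio was 0.91 (0.01 to 1.86) in library 1 and 0.55 in library 2, where the interval includes no difference. Ly6c2, the close copy of Ly6c1, was lower at -2.22 and -3.47.

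Several granule genes drew most of their UMIs from few cells. Cells with a UMI of Elane, S100a8 or S100a9 were 8 of 1450 (0.552%) and 3 of 2088 (0.144%) in the Il2ra+ class, and 26 of 1635 (1.59%) and 31 of 3295 (0.941%) in the class with no gate UMI. Those of the class with no gate UMI held 84.8% and 86% of the Prtn3 UMIs and 73.2% and 53.3% of the Ctsg UMIs, but 27.1% and 14.9% of the Mpo UMIs and 1.9% and 1.33% of the Ctss UMIs. They also held 66.1% and 66.2% of the UMIs of Cebpa, a progenitor factor gene outside the granule list. Without them Cebpa had ratios of -1.31 and -2.69, on 8 and 3 UMIs in Il2ra+ cells. With these cells left out, Prtn3 still had ratios of -1.07 and -1.38 and Lmo2 of -1.60 and -1.51. Ctsg, at 0.06 and -0.15, and Ly6c2, at -0.60 and -0.08, came close to no difference. In all, 80 of 82 named and called genes then kept the bulk direction in both libraries. Mcpt2, a bulk fall, was not counted because it had 0 UMIs in library 1. In library 2 it had 47 UMIs in Il2ra+ cells and 1 in cells with no gate UMI, the opposite of its bulk direction.

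**Figure D5:**
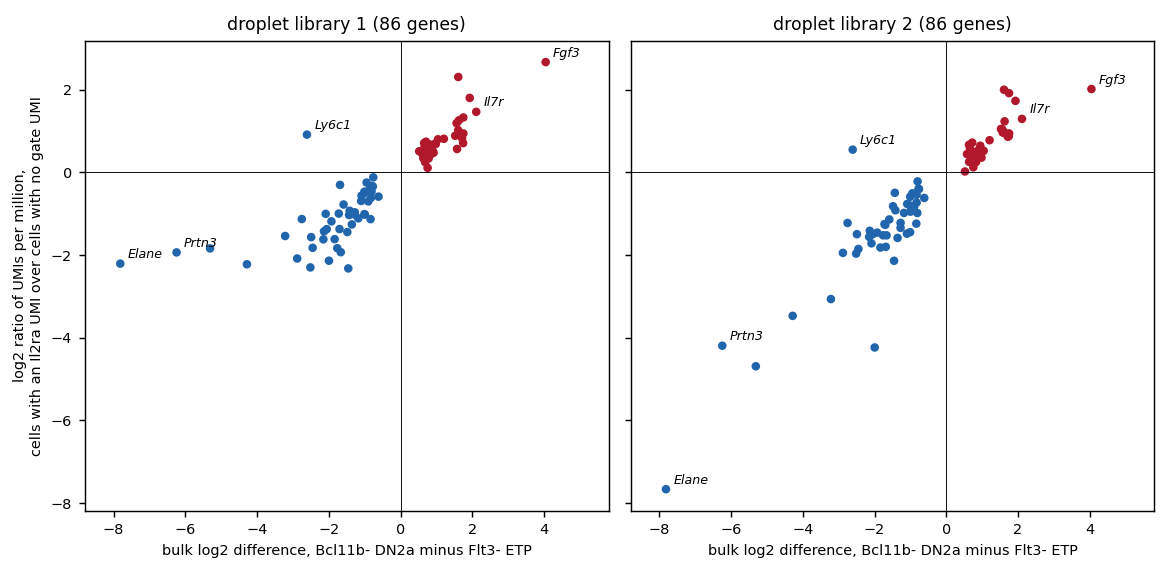
Bulk log2 difference (horizontal axis) and droplet log2 ratio of UMIs scaled to the class total, cells with an Il2ra UMI over cells with no gate UMI (vertical axis), of 86 named and called genes in each droplet library, with bulk rises in red and falls in blue. All points but Ly6c1 lie in the quadrants of like sign; the ratio of Elane in library 2 rests on 3 UMIs in the Il2ra+ class.

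Whether the difference depended on the library kit was tested as an interaction. Of 12112 genes 0 passed (0%) in limma, with 1520 at an unadjusted p under 0.05 and a smallest adjusted p of 0.252. The arm of each group in SMARTseq is a single library, whose spread is taken from the other groups. The genes at an unadjusted p under 0.05 were more than the share expected if no difference depended on the kit. The absence of calls therefore does not show that the differences are the same in both kits. Genes called with NEBNext libraries alone can be read in the SMARTseq pair, which that fit did not use. Of 262 called lower with NEBNext, 85.5% were lower with SMARTseq, with a median difference of -0.647. Of 772 called higher, 568 (73.6%) were higher with SMARTseq, with a median of 0.133. Over all 11897 genes of that fit 46% were higher and 52.8% lower in the SMARTseq pair.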

How the data were processed

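Bulk RNA was measured in 12 libraries and single cells in 2 droplet libraries; the C1 single-cell values of the series were not used here. The authors deposited bulk values as FPKM per RefSeq gene, on mm10 (GRCm38); the submitters' processing notes name STAR 2.4.0, RSEM 1.2.25, HOMER and edgeR 3.6.8, with no role or order. Droplet UMI counts were deposited as matrices, and the same notes name Cell Ranger 2.0. Per gene, FPKM times length is a whole multiple of 1 read, within 0.1 read, for 96.7% to 99.8% of low values, and reads recovered in this way gave the depths.

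limma 3.58.1 in R 4.3.3 was fitted, with a mean-variance trend, to log2(FPKM + 1) values of all 12 libraries, the terms being population and kit. Genes above 1 FPKM in at least 2 libraries, 12112 of the table, were tested, and p-values were adjusted by Benjamini-Hochberg over all of them. With a pseudocount of 1, differences of genes at low levels are understated. Gene levels are set side by side between genes in FPKM alone. Droplet cells needed 1000 genes or more and a mitochondrial share below 10% of UMIs, 4878 of 5006 and 8434 of 8867 barcodes being kept, with no doublet caller. Promoter windows are RefSeq's. The functions were tested on simulated data.

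The members and lists were chosen with earlier results of these data known. Named genes were the 15 largest rises and falls called in the kit and series fits with a mean log2 level of at least 2, up to 4 called genes per list by adjusted p, and 15 regulators whatever their result. Alternatives were the series block, no kit term, the 5 libraries alone, NEBNext libraries alone, a pseudocount of 0.1, no filter, quantile and median-ratio scaling, edgeR 4.0.16 on recovered reads, each library left out, and for droplets other cell rules. Some named genes are not reported here.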

Additional observations from a re-analysis of the deposited data

How the results depend on the processing

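Of the genes tested, 3.97% were called. The share was 7.74% with the library-number series as the replicate block, 0.289% with no kit term, 8.69% with the NEBNext libraries alone, 5.35% with median-ratio scaling, 6.05% with edgeR on recovered reads, and 12.7% with edgeR and that block, a setting chosen after seeing the data. Leaving out one library gave 1.35% to 21.1%. Of the calls 40.7% were higher in Bcl11b- DN2a, and 74.7% with the NEBNext libraries alone, 29.3% without a filter, 33.9% with quantile normalization and 31.2% with edgeR. The median of all genes was 0.0471 with quantile normalization and 0.0392 with median-ratio scaling. The cause of these shifts was not tested. The kit test gave 235 calls with no filter, in place of 0. The groups share replicate number 1 alone in the labels, so pairing was read from the library numbers. Across genes, the step from the first to the SMARTseq series correlated at r = 0.905 between the groups. That step is also a change of kit, so this r cannot show whether the libraries were paired. Among named genes that did not pass, Bcl11a turned to 0.11 with NEBNext alone and ranged from -0.15 to 0.085 without one library, being 0.033 without Flt3- ETP replicate 2, Bcl11b turned to -0.042 and ranged from -0.0068 to 0.57, and Mef2c turned to 0.0029. Of the named genes, 46 lost their call without Flt3- ETP replicate 1. Flt3- ETPs have 2 libraries of different kits, which limits precision.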
